A study of Mus musculus with 8 samples.

Results

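The cytosolic ribosome is built from ribosomal RNA and a fixed set of ribosomal proteins. The large subunit joins amino acids and the small subunit reads the mRNA. Nearly all of these proteins are needed in equal number, and the mRNAs of these proteins are short, abundant and mostly begin with an unbroken stretch of pyrimidines, the terminal oligopyrimidine (TOP) start, through which the growth kinase complex mTORC1 and the RNA-binding protein LARP1 control their translation. Smooth muscle cells raise ribosome production when growth factors such as PDGF-BB drive them from a contractile to a proliferating, synthetic state.

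The genes were found by their symbols, as those of the large subunit (Rpl and Rplp names) or the small subunit (Rps names and Rpsa), without the Rps6k kinases. Of the 18533 gene symbols in the deposited tables, 83 matched, 51 of the large and 32 of the small subunit. They were measured by RNA-Seq in MASMCs, primary smooth muscle cells grown from the aortas of male mice aged 4 to 6 weeks. WT MASMCs (n = 4) came from C57BL/6J mice and Hint1-/- MASMCs (n = 4) from constitutive knockout mice, and all 8 samples, controls included, had been given PDGF-BB at 20 ng/mL for 24 hours. No sample without PDGF-BB was analysed here, so the values compare genotypes within treated cells. The labels do not say whether replicates came from separate mice, so p-values measure the spread between these samples, which may be technical.

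The 8 libraries held 20778077 to 20888041 estimated counts. Hint1 itself had estimated counts of 2272 to 2364 in WT and 713 to 778 in Hint1-/- MASMCs, with no overlap (log2 fold change −1.64, adjusted p = 6.8e-16 by edgeR's quasi-likelihood test). All 7 smooth muscle markers were detected, with summed levels of 1352 to 1469 CPM (counts scaled to library size) in WT and 1117 to 1207 CPM in Hint1-/- MASMCs, and 5 of the 7 fell while 1 rose. Summed levels of the 6 macrophage markers were 2262 to 2619 CPM in WT and 1847 to 1967 CPM in Hint1-/- MASMCs, all 6 fell and none was at 0. The 5 fibroblast markers summed to 1446 to 1562 CPM in WT and 2412 to 2536 CPM in Hint1-/- MASMCs, with 3 higher, 1 lower and none at 0. The 6 Schwann cell and glial markers summed to 56.1 to 61.1 CPM in WT and 23.2 to 26.1 CPM in Hint1-/- MASMCs, and the 7 cardiac markers to at most 2.11 CPM in WT and 6.05 to 10.4 CPM in Hint1-/- MASMCs. The 6 endothelial markers summed to at most 6.28 CPM in any library. The part of other cells in the ribosomal protein values was not tested, and fewer cells of a type and less RNA per cell cannot be told apart in bulk samples.

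The ribosomal protein genes carry recognisable promoters, and start-site sequences are shown to let the members that fell be read beside those with the longest pyrimidine run. RefSeq promoters of GRCm38.p6, each with 250 bases before and 50 after the annotated start, were matched for 63 of the 83 members. Each window has 30 bases, base 16 is the annotated start site, and capitals mark the unbroken run of C and T that covers it, as far as it lies in the window. The first 4 are members that fell in Hint1-/- MASMCs, and the other 4 have the longest runs.
Rps12, chr10:23787195-23787224, minus strand: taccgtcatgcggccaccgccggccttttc
Rplp0, chr5:115559452-115559481, plus strand: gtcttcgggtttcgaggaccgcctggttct
Rpl13a, chr7:45128731-45128760, minus strand: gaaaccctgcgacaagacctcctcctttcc
Rpsa, chr9:120127751-120127780, plus strand: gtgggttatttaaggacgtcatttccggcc
Rpl7a, chr2:26910792-26910821, plus strand: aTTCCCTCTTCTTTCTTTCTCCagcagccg
Rpl27a, chr7:109519180-109519209, plus strand: gacttcgtgagCTCCTCCCTTTTCCCTTTC
Rpl34, chr3:130730323-130730352, minus strand: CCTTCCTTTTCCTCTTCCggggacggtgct
Rpl35, chr2:39005117-39005146, minus strand: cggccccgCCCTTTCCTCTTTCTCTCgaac

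A run of at least 8 pyrimidines covered the annotated start in 18 of 63 members (28.6%), against 4.59% of 27025 genes with a promoter in the same table. Bases before the start site were counted in the run, so it is not the same as a TOP start. The 20-base run of Rpl34, for one, has 3 bases from the start site onward. None of the 4 windows of members that fell had a pyrimidine at the annotated start, and this says only that the letters are not there. The other 4 windows were picked for their runs, so the contrast in print follows from that choice. Over the 63 matched members, a run of at least 5 covered the start in 33.3%, so its absence was common. Rps14, which also fell, was not among the 63 matched members. Annotated starts differ between sources. The Rpsa window begins at 120127751, inside the GENCODE gene, which begins at 120127689. The 17 tested members with a run of at least 8 had a median log2 fold change of −0.07 and 0 of them fell. The 42 without it had a median of −0.06 and 4 of them fell. Over all genes tested 10.2% fell, and these counts are too small to tell the groups apart. The difference between them was not tested. The motif CCGGAAG, bound by the ETS factor GABP, was found on either strand in 41.3% of members and in 9.93% of all genes with a promoter. Rpsa was the 1 of 25 tested members with it that fell, and 3 of 34 without it fell. The motif AAGATGG, bound by YY1, was found in 14.3% of members against 7.28% of all, and TATAAA stood before the start in 3.17% of members against 8.94% of all. The GABP and YY1 motifs can overlap by their shared letters AAG. Medians of members with and without the GABP motif were −0.05 and −0.06 on the log2 scale.

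The ribosomal protein genes differed little between Hint1-/- and WT MASMCs. Of 79 members with enough counts to test, 5 fell at an adjusted p under 0.05 and 0 rose, and the count of members that fell is 6.33% against a background of 10.2% of all 13535 genes tested. The background for genes that rose was 11.2%. None of the 5 reached the 1.5-fold limit, which 2.83% of all genes passed together with the adjusted p. The size of the set that fell depended on the scaling and the method. With upper-quartile factors or library totals only, 10 of 79 members fell (12.7%), against 11.3% and 11.6% of all genes. With DESeq2, 8 of 83 members fell (9.64%), against 6.08% of 18409 genes. These include genes with too few counts for the main fit, so this background is not over the same genes. Under these settings the members' share lay above the background, where the main fit put it below. In the main fit, log2 fold changes ran from −0.15 (Rps14) to 0.05 (Rps21), that is, from 0.901 to 1.04 of the WT level.

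Small shifts downward were frequent among the members. The fitted value was below 0 for 70 of 79 members (88.6%), against 49.9% of all genes tested. It was also below 0 for 60 of 74 tested ribosome assembly factors (81.1%) and 57 of 78 mitochondrial ribosomal protein genes (73.1%). Members moved together by library, as given below, so the 70 are not separate observations. The members' median was −0.05 on the log2 scale, against 0.00 for all genes (0.000306 before rounding). At an unadjusted p under 0.05, 17 members were lower (21.5%, against 15.9% of all genes) and 0 higher. The 95% intervals of the 78 tested members other than Rps6, whose counts are no measure of its level, spanned folds of 0.855 to 1.14, and none reached the 1.5-fold limit. Over all 79 the half-widths were 0.07 (Rpl26) to 0.16 (Rpl36) on the log2 scale.

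**Figure D1:**
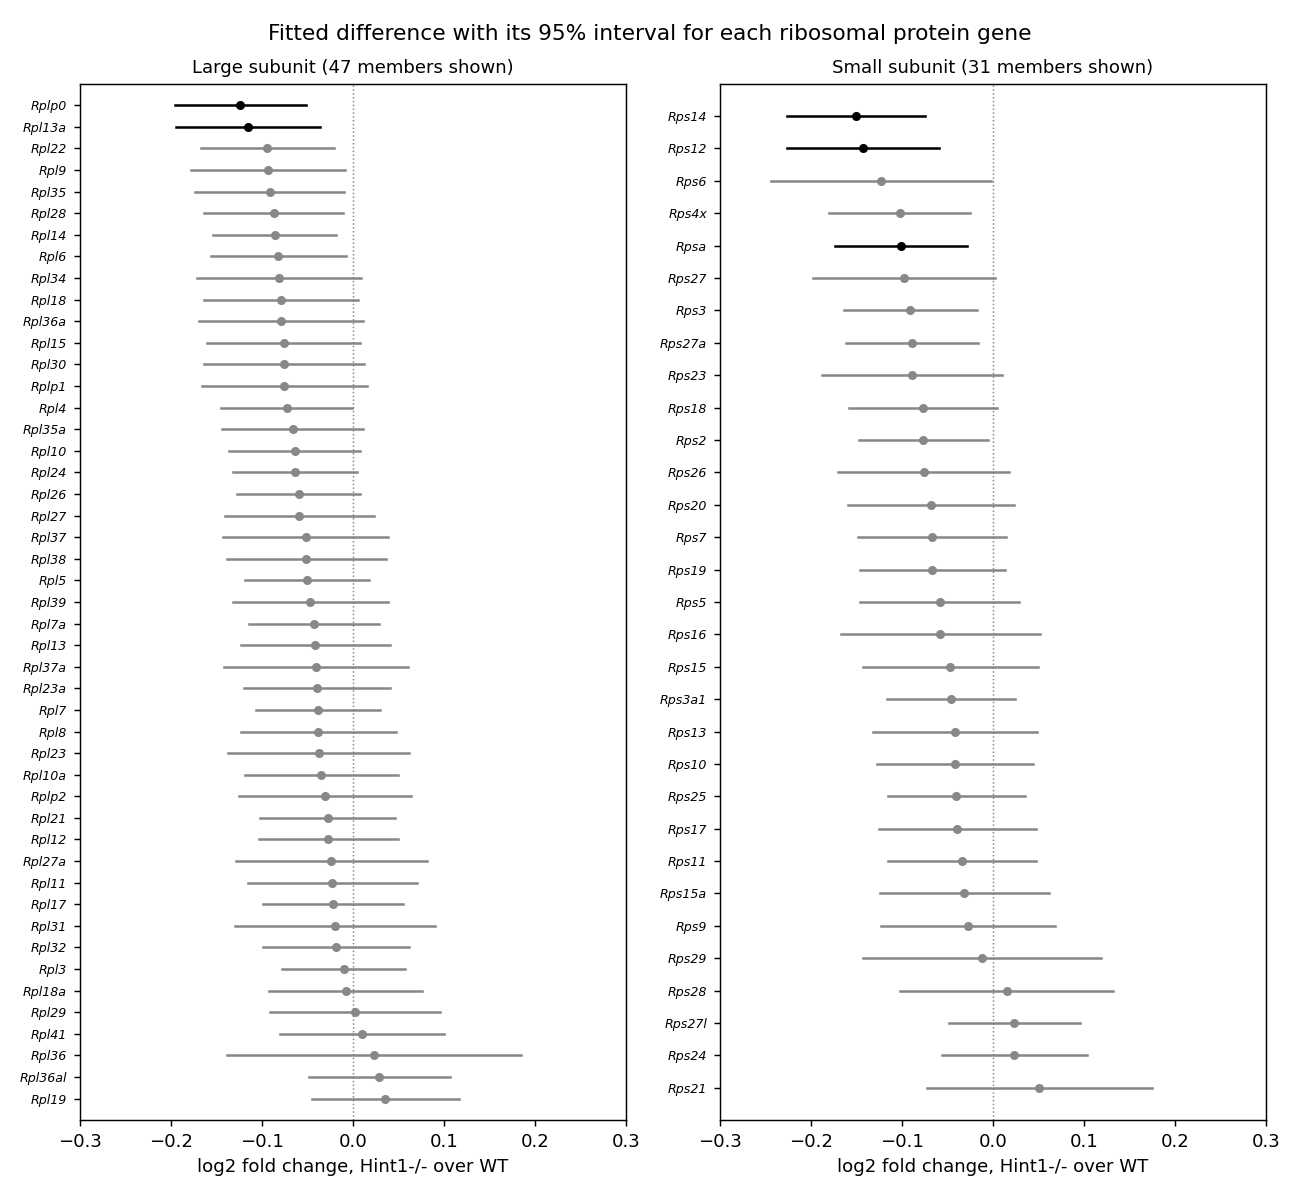
Each row is 1 of 78 of the 79 tested ribosomal protein genes, with the fitted log2 fold change (point) and its 95% interval (line) on the horizontal axis, large subunit on the left and small subunit on the right, black for members past an adjusted p of 0.05. The points lie between −0.15 and 0.05, and the 5 black ones are all below 0.

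Each subunit held members that fell, at shares under the background of 10.2% of all genes, and none that rose (background 11.2%). In the large subunit 2 of 47 tested members fell (4.26%) and the median log2 fold change was −0.05. In the small subunit 3 of 32 fell (9.38%) and the median was −0.06. Fitted below 0 were 42 large subunit members (89.4%) and 28 small subunit members (87.5%), against 49.9% of all genes. Whether the subunits differ was not tested.

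Libraries differed more than the genotypes did in a pattern shared by the members. Within WT, replicate 2 was the lowest of the 4 libraries for 70 of 79 members (88.6%), and within Hint1-/-, replicate 4 was the lowest for 69 of 79 (87.3%). Over all genes tested, these libraries were the lowest of their genotype for 29.7% and 26.4%. The median member's distance from its genotype's mean log2 CPM was −0.09 in WT replicate 2, −0.06 in Hint1-/- replicate 4 and 0.06 in WT replicate 4. The difference between the highest and lowest WT library was thus larger than the median difference between genotypes.

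**Figure D2:**
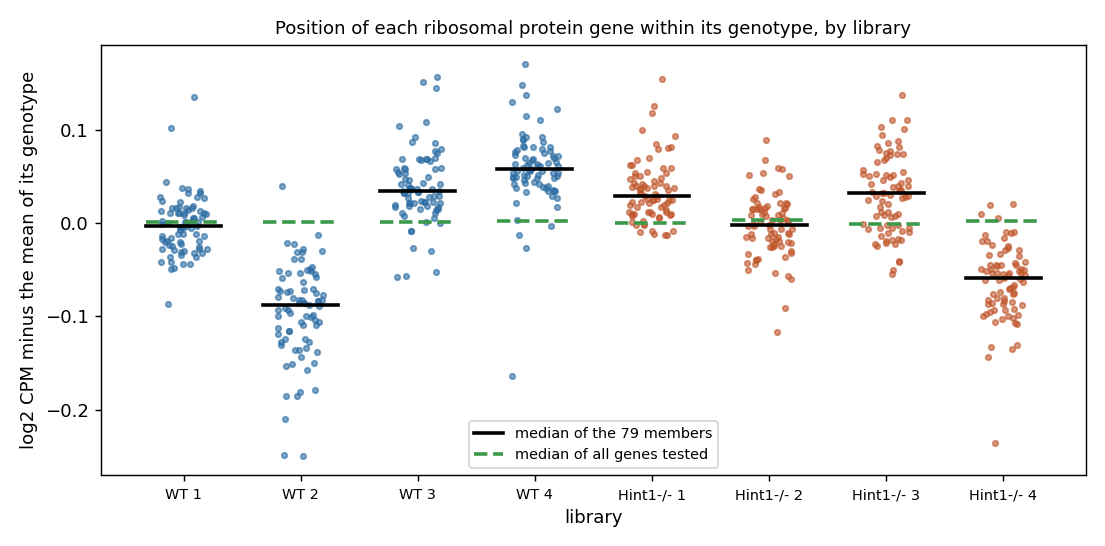
The vertical axis gives each of the 79 members' log2 CPM in a library minus the mean of its own genotype, with 1 point per member, a black bar for the members' median and a dashed green bar for the median of all genes tested. WT replicate 2 and Hint1-/- replicate 4 sit low as a block, with medians of −0.09 and −0.06, while the green bars stay at 0.00. The scaling over all genes places the green bars there.

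The movement was common to the members. The mean shift of each library accounted for 62.2% of the members' variance within genotypes, against 24.3% for the 78 mitochondrial ribosomal protein genes. It was 0.0472% for all genes tested and 0.386% for 4531 other genes of any length with at least 1000 counts. The scaling sets the libraries level over the bulk of genes, so small values for such broad sets follow from it. Short abundant transcripts of other kinds moved with the members. Among 199 other genes under 1000 bases with a mean of at least 1000 counts, WT replicate 2 was lowest for 65.8% and Hint1-/- replicate 4 for 65.3%, and the shared part was 26.0%. The median distance in Hint1-/- replicate 4 was −0.0585 for members, −0.0622 for mitochondrial ribosomal protein genes and −0.0586 for these 199. In WT replicate 2 it was −0.0872, −0.0435 and −0.0632. The shared part also depends on how much single genes scatter, so it does not rank the sizes of the shift. Fau, Rack1, Rpl22l1 and Rpl7l1, ribosomal or ribosome-related proteins whose names fall outside the symbol rule, were all lowest in WT replicate 2 and in Hint1-/- replicate 4. The source of the shift was not tested.

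The number of members that fell rested on single libraries. It was 19 without WT replicate 2 (24.1% of members against 10.2% of all genes) and 1, Rps14, without WT replicate 3 (1.27% against 8.15%). It was 3 (3.80%) without WT replicate 1, without WT replicate 4, without Hint1-/- replicate 2 or without Hint1-/- replicate 4, against 7.90% to 9.15% of all genes. Without WT replicate 2 and Hint1-/- replicate 4 together, an alternative added after the data were seen, 8 members fell (10.1% against 8.42% of all genes). No member rose under any of these.

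Members took 3.93% ± 0.168 of the counts in WT and 3.74% ± 0.115 in Hint1-/- MASMCs (SD, n = 4 each). The shares were 3.89, 3.71, 4.02 and 4.09% in WT replicates 1 to 4. They were 3.81, 3.74, 3.84 and 3.58% in Hint1-/- replicates 1 to 4. The ranges overlapped, since WT replicate 2 lay below 3 of the 4 Hint1-/- libraries. Large subunit genes held 2.39% ± 0.0976 in WT and 2.28% ± 0.0697 in Hint1-/- MASMCs, and small subunit genes 1.54% ± 0.0710 and 1.46% ± 0.0457 (SD, n = 4 each). Counts of the large subunit over those of the small were 1.54 to 1.56 in WT and 1.56 to 1.57 in Hint1-/- MASMCs.

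The 5 members that fell are given first by library. Rps14, a small subunit protein needed to mature the small subunit's RNA, was the member with the lowest adjusted p. Its level was 379.9, 363.9, 391.9 and 393.1 CPM in WT replicates 1 to 4 and 346.6, 358.5, 346.3 and 326.5 CPM in Hint1-/- replicates 1 to 4. Every Hint1-/- library lay below every WT library. WT MASMCs averaged 382 ± 13.6 CPM and Hint1-/- MASMCs 344 ± 13.3 CPM (SD, n = 4 each), 9.87% lower. On the log2 scale Rps14 fell by 0.15 (SE 0.04, edgeR adjusted p = 0.00545, exact two-sided permutation p = 0.0286, the smallest that 4 against 4 can give). It was the 1 member that fell without each of the 8 libraries in turn.

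Rplp0, the large subunit protein at the base of the stalk that recruits elongation factors, is also a common reference gene in quantitative PCR. Its level was 1700.8, 1634.7, 1780.8 and 1784.5 CPM in WT replicates 1 to 4 and 1581.2, 1580.3, 1615.4 and 1556.1 CPM in Hint1-/- replicates 1 to 4. The genotypes did not overlap. Rplp0 was 8.23% lower in Hint1-/- MASMCs, a difference of −0.12 in log2 units (SE 0.03, edgeR adjusted p = 0.0138, exact permutation p = 0.0286). Without WT replicate 3 the adjusted p was 0.0655.

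Rps12, a small subunit protein, had 538.0, 505.8, 570.6 and 579.7 CPM in WT replicates 1 to 4 and 510.0, 484.3, 506.2 and 487.0 CPM in Hint1-/- replicates 1 to 4. The genotypes overlapped through WT replicate 2. Rps12 fell by 0.14 on the log2 scale (SE 0.04, edgeR adjusted p = 0.0149), and the exact permutation p was 0.0857. The adjusted p was 0.0673 without WT replicate 3 and 0.0552 without Hint1-/- replicate 2. Of its 50-base windows, 31.5% also occur in a transcript annotated to Nphs1.

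Rpl13a, a large subunit protein known also for silencing inflammatory mRNAs and for use as a reference gene, had 708.0, 655.4, 712.2 and 732.7 CPM in WT replicates 1 to 4 and 642.6, 640.6, 681.0 and 627.8 CPM in Hint1-/- replicates 1 to 4. WT replicate 2 lay below the highest Hint1-/- library. Rpl13a fell by 0.12 on the log2 scale (SE 0.04, edgeR adjusted p = 0.0344, exact permutation p = 0.0571). The call was kept without WT replicate 2 or without Hint1-/- replicate 3 and was lost without each of the other 6 libraries, with adjusted p of 0.0766 to 0.0998.

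Rpsa, the small subunit protein that also serves as a laminin receptor precursor, had 1793.6, 1680.2, 1816.7 and 1819.8 CPM in WT replicates 1 to 4 and 1703.2, 1678.8, 1651.0 and 1597.4 CPM in Hint1-/- replicates 1 to 4. The genotypes overlapped through WT replicate 2, which lay below 1 Hint1-/- library. Rpsa fell by 0.10 on the log2 scale (SE 0.03, edgeR adjusted p = 0.0452, exact permutation p = 0.0571). This call was lost without any 1 library other than WT replicate 2, with adjusted p of 0.0507 to 0.141, and when trends over length and GC content were removed (adjusted p = 0.0591).

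**Figure D3:**
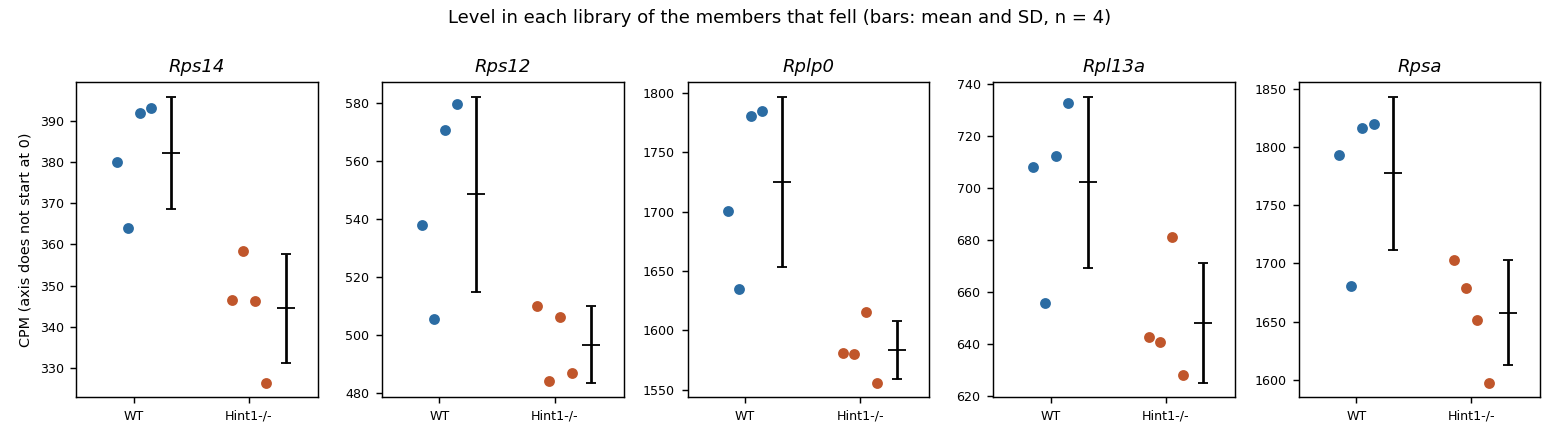
Each panel shows 1 of the 5 members that fell, with the CPM of the 4 WT (blue) and 4 Hint1-/- (orange) libraries and the mean with its SD beside them, on axes that do not start at 0. Rps14 and Rplp0 show no overlap between genotypes, and in the other 3 the lowest WT library, replicate 2, reaches into the Hint1-/- range.

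No overlap between genotypes, with Hint1-/- lower, was seen for 5 of 79 members (6.33%), against 11.0% of all genes tested. Besides Rps14 and Rplp0 these were Rpl14, Rpl26 and Rpl28, of which Rpl14 and Rpl28 are named here after their values were seen. Their adjusted p were 0.0658, 0.206 and 0.100 by edgeR, so they did not pass. Rpl26, which binds p53 mRNA besides its part in the large subunit, had 426 ± 10.7 CPM in WT and 408 ± 9.35 CPM in Hint1-/- MASMCs (SD, n = 4 each).

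The stalk proteins Rplp1 and Rplp2, the partners of Rplp0, did not pass. The log2 fold change of Rplp1 was −0.08 (95% interval −0.17 to 0.02). That of Rplp2 was −0.03 (95% interval −0.12 to 0.06). The 3 stalk genes all had their lowest WT value in replicate 2.

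Rpl5 and Rpl11 form, with the smallest ribosomal RNA, the particle that binds Mdm2 when ribosome assembly is disturbed. Rpl5 had 575 ± 16.4 CPM in WT and 556 ± 13.3 CPM in Hint1-/- MASMCs, and Rpl11 had 431 ± 27.9 and 424 ± 20.6 CPM (SD, n = 4 each). Their log2 fold changes were −0.05 (adjusted p = 0.305) and −0.02 (adjusted p = 0.776). Of the 6 genes listed for this checkpoint, Mdm2, the ubiquitin ligase of p53, and Cdkn1a, a cell cycle inhibitor induced by p53, fell. Their log2 fold changes were −0.12 and −0.11 (adjusted p = 0.0105 and 0.0396 by edgeR). They are 33.3% of a list of only 6, against 10.2% of all genes tested.

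Of the members picked for their place in the large subunit, Rpl3 was nearest to 0. Rpl3, which lies by the peptidyl transferase centre, had a log2 fold change of −0.01 (95% interval −0.08 to 0.06). Rpl4, which lines the exit tunnel, had −0.07 (95% interval −0.14 to −0.00, adjusted p = 0.147). Rpl10, the protein placed last in the large subunit, had −0.06 (95% interval −0.14 to 0.01). None of the 3 passed over all genes.

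Members known for roles in selective translation or disease were also within this band. Rpl10a and Rpl38, linked to the translation of particular mRNAs, had −0.03 and −0.05 on the log2 scale (adjusted p = 0.596 and 0.429). Rps25, needed by many internal ribosome entry sites, had −0.04 (adjusted p = 0.480). Rps19, the gene most often mutated in Diamond-Blackfan anaemia, had 290 ± 13.1 CPM in WT and 277 ± 10.7 CPM in Hint1-/- MASMCs (adjusted p = 0.238 by edgeR). The intervals of these 4 lay between −0.15 and 0.05, which is what can be said of their difference.

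The small subunit members picked by role were, like 28 of 32 small subunit members, fitted below 0, and those given next did not pass. Rps3, at the mRNA entry, had a log2 fold change of −0.09 (adjusted p = 0.0723), with 609.7 CPM in WT and 572.5 CPM in Hint1-/- MASMCs on average. Rps26, at the mRNA exit, and Rps20 had −0.08 and −0.07 (adjusted p = 0.252 and 0.293). Rps15a had −0.03 (adjusted p = 0.677). Rps27a, made as a fusion with ubiquitin, had −0.09 (adjusted p = 0.0773). Rps3 and Rps27a passed without WT replicate 2 (adjusted p = 0.0109 and 0.0162), as did Rps20 (adjusted p = 0.0218).

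Rps6, the small subunit protein phosphorylated by the S6 kinases, needs a reading of its own. It had only 343 to 422 estimated counts per library, the fewest of the tested members, while Rps6-ps4 had 16973 to 18879. Rps6 lies at chr4:86854660-86857412 and the processed copy Rps6-ps4 at chr2:75191073-75191822, both on the minus strand of mm10. The 750-base transcript of the copy is identical to positions 87 to 836 of the 878-base Rps6 transcript, that is, to all of its coding sequence. Below, capitals mark the bases of Rps6 that the annotated copy shares. Lower case marks the flanking untranslated bases of Rps6, which lie beyond the ends of the annotated copy.
Start of the shared stretch: ctcggctgtgtcaagATGAAGCTGAACATC
End of the shared stretch: TCCAGTCAAAAATGAgtctttaagagcaac

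Reads of 50 bases from the coding sequence therefore fit both genes, and 97.7% to 98.1% of the estimated counts of the pair were given to the copy. The counts under the name Rps6 give no measure of the gene's level. Its log2 fold change was −0.12 (95% interval −0.24 to −0.00, adjusted p = 0.146). With the counts of both summed, a choice made after the data were seen, WT MASMCs had 903 ± 25.7 CPM and Hint1-/- MASMCs 878 ± 29.3 CPM (SD, n = 4 each). The log2 fold change of the sum was −0.04 (SE 0.03, adjusted p = 0.443 by edgeR).

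Other members also shared sequence with genes in the tables. Of all 83 members, 80 had at least 1 window of 50 bases that occurs in a transcript of another gene, and 48 shared at least 50% of their windows. With genes listed in the deposited tables, 30 shared a window and 6 shared at least 50%, among them Rps27, Rps6, Rpl34, Rpl35 and Rpl29, the last of which is named after its values were seen. Rps27 shared 98.6% of its windows with Rps27rt, which took 7.49% to 9.50% of the pair's counts. Rpl37rt took 50.5% to 59.5% of the counts of its pair with Rpl37, and Rpl31-ps12 took 15.8% to 19.8% with Rpl31. Summing the pairs gave log2 fold changes of −0.10 for Rps27, −0.06 for Rpl37, −0.04 for Rpl31 and −0.08 for Rpl34, with adjusted p of 0.130 to 0.655.

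**Figure D4:**
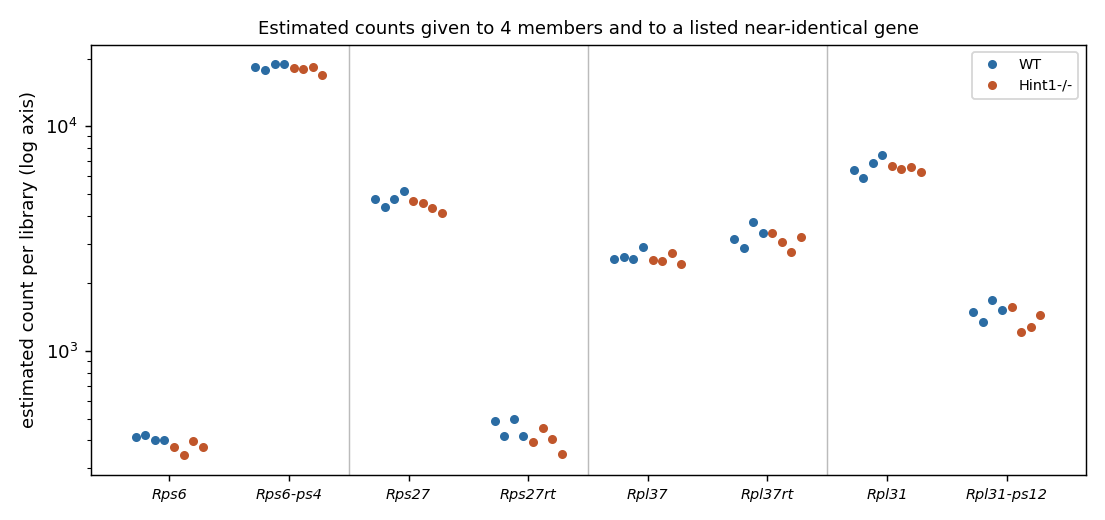
Estimated counts per library on a log axis for 4 members and, to the right of each, a listed gene of near-identical sequence, in WT (blue) and Hint1-/- (orange) libraries. Rps6 stays between 343 and 422 counts while Rps6-ps4 stays between 16973 and 18879.

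Some relatives of the members were barely detected, while the paralogs Rps27l and Rpl36al were detected but lower per kilobase than their partners. Rpl3l, the striated muscle form of Rpl3, had 3 to 12 counts per library, and Rpl10l and Rpl39l, forms known from testis, had 0 to 1 and 0 to 4. Rpl32l, with no coding length recorded, had 0 to 7 counts, and these 4 were the members not tested. Per kilobase of annotated transcript, Rps27 had 660 ± 47.0 CPM and its paralog Rps27l, a p53 target, 181 ± 4.75 CPM in WT (SD, n = 4). Rpl36a had 342 ± 24.5 CPM per kilobase and Rpl36al 182 ± 7.01 in WT. Rps27l and Rpl36al had fitted log2 fold changes of 0.02 and 0.03 (adjusted p = 0.689 and 0.635), where Rps27 and Rpl36a had −0.10 and −0.08 (adjusted p = 0.164 and 0.211). The difference between partners was not tested. Rpl39 had −0.05 and Rpl7 had −0.04 on the log2 scale, and Rps4x, the X-linked small subunit gene, had −0.10 (adjusted p = 0.464, 0.445 and 0.0564).

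Rpl22, an RNA-binding large subunit protein, had 230 ± 5.999 CPM in WT and 216 ± 8.66 CPM in Hint1-/- MASMCs (SD, n = 4 each, log2 fold change −0.09, adjusted p = 0.0642 by edgeR). Per kilobase of transcript its paralog Rpl22l1 had 31.4 CPM against 112 CPM for Rpl22 in WT. The log2 fold change of Rpl22l1 was 0.01 (adjusted p = 0.927). Fau, the ubiquitin-like fusion that yields a small subunit protein, had −0.08 (adjusted p = 0.164), and Rack1, the scaffold on the small subunit, had −0.06 (adjusted p = 0.352). Rpl7l1, a divergent relative of Rpl7, had −0.00 (adjusted p = 0.960).

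Levels per length differed widely between members even though nearly all of the proteins are used in equal number. On the scale of CPM per kilobase of annotated transcript in WT, the median of the 79 tested members was 584 and the middle range was 393 to 746. The highest were Rps2 at 1617 ± 38.2, Rplp1 at 1366 ± 93.1, Rplp0 at 1270 ± 52.7 and Rpl41 at 1197 ± 70.02 (SD, n = 4). Their order was the same in all 4 WT libraries. Rpl41 differed from the next member, Rpl23a at 1174 ± 38.9 (named after its values were seen), by less than either SD. Rps2, a protein at the mRNA entry, and Rpl41, the smallest member, had fitted log2 fold changes of −0.08 and 0.01 (adjusted p = 0.122 and 0.904).

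The lowest per kilobase of transcript were Rps6 at 22.3, Rps15a at 45.4, Rps20 at 89.6 and Rpl22 at 112 CPM. For Rps15a, Rps20 and Rpl22 this rests on annotated transcripts of 5130, 3706 and 2048 bases. Per kilobase of coding sequence they had 592, 922 and 595 CPM, against a median of 867. On that scale Rpl41, with a coding length of 78 bases, was highest at 8348 CPM. Rps6 summed with its copy had 1029 CPM per kilobase of transcript.

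Transcript length was noted because these genes are short. The tested members had a median annotated transcript of 774 bases, against 2895 for all tested genes with a length. Other short genes also had medians a little below 0. Members under 600 bases (25) had a median log2 fold change of −0.04 and the 163 other genes under 600 bases −0.05, while members of 600 to under 1000 bases (34) had −0.05 and the 611 other genes −0.04. At 1000 to under 2000 bases the 16 members had a median of −0.07 and 3 of them fell (18.8%), against −0.03 and 13.0% for 2910 other genes. Other genes of at least 4000 bases (3967) had a median of 0.03. Removing each library's trend over length and GC content left 56 of 79 members below 0, a member median of −0.02, and 4 members that fell. Across the 79 members, log2 fold change and log2 length had Pearson's r of −0.16 and Spearman's rho of −0.16, given as a description of points that share their libraries. Across 13066 other tested genes the values were 0.07 and 0.17.

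**Figure D5:**
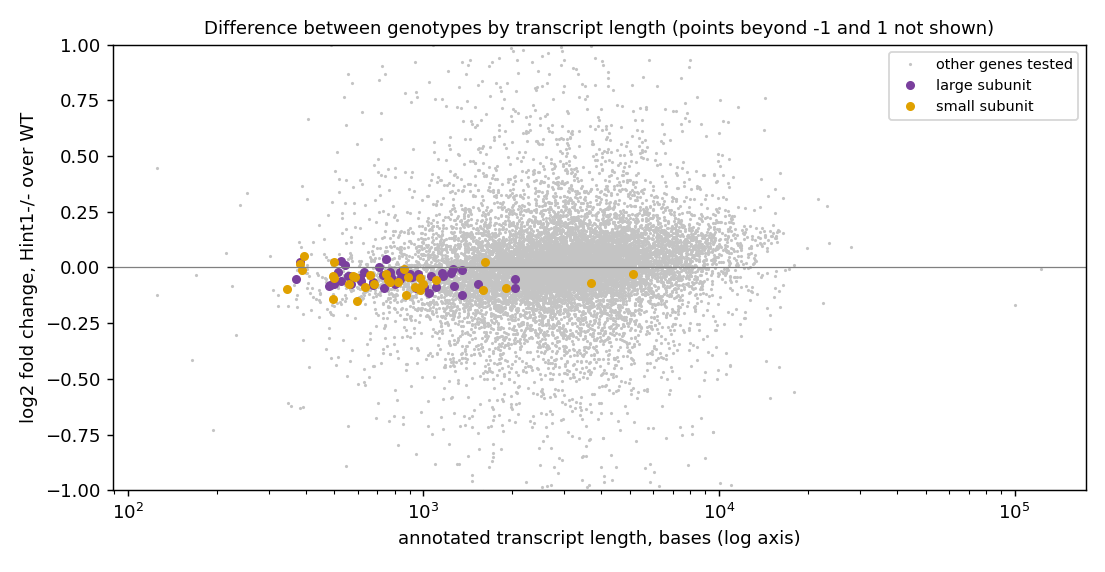
The horizontal axis is annotated transcript length in bases on a log scale and the vertical axis the log2 fold change, with large subunit members in purple, small subunit members in yellow and other tested genes in grey. Members lie on the short side, with a median of 774 bases, and between −0.15 and 0.05.

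The 4 members that varied most between libraries of a genotype, Rpl36, Rps29, Rps28 and Rps21, were picked for that spread after their values were seen, and have short annotated transcripts of 383, 390, 382 and 394 bases. Their coefficients of variation within genotypes were 12.04, 8.72, 7.50 and 7.38%, where the median member had 4.46%. The shortest tested members, Rps27 with 345 bases and Rpl38 with 371, had 6.41 and 4.78%. Rpl36 had 150.5, 125.5, 152.8 and 122.4 CPM in WT replicates 1 to 4 and 154.9, 133.8, 153.1 and 118.2 CPM in Hint1-/- replicates 1 to 4. It was low in replicates 2 and 4 of both genotypes, so the genotypes overlapped fully. Its log2 fold change was 0.02 (95% interval −0.14 to 0.18).

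Genes that make ribosomes showed small changes too. Of 74 tested ribosome assembly factors, 12 fell and 1 rose, and the median log2 fold change was −0.05. The largest were Gar1, a protein of the RNA-pseudouridylating particles (−0.21, adjusted p = 0.0393), Rsl24d1 (−0.18, adjusted p = 0.00729) and Nop16 (−0.17, adjusted p = 0.00493). Of 17 tested genes of the RNA polymerase I machinery, Ttf1, a terminator protein, rose (0.23, adjusted p = 0.00933) and Tcof1, a nucleolar assembly protein, fell (−0.11, adjusted p = 0.0329). Of 9 tested chaperones of ribosomal proteins, 1 fell, Nap1l1 (−0.12, adjusted p = 0.00756). The assembly factors that fell are 16.2% of those tested, against the background of 10.2%. The 1 chaperone is 11.1% of its list, near that background. Ttf1 and Tcof1 are each 5.88% of the polymerase list, under the backgrounds of 11.2% (rose) and 10.2% (fell).

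Other TOP mRNAs were mostly fitted below 0 as well, 19 of 22. Of 22 tested genes for translation elongation and other TOP mRNAs, 4 fell (18.2%, against the background of 10.2%) and 0 rose, with a median of −0.06. Btf3, a subunit of the complex that meets new chains at the exit tunnel, had 323 ± 9.78 CPM in WT and 288 ± 11.2 CPM in Hint1-/- MASMCs (SD, n = 4 each, log2 fold change −0.16, adjusted p = 0.00224 by edgeR). Eef1d, an exchange factor for the elongation factor, fell by 0.14 on the log2 scale (adjusted p = 0.00430). Nap1l1, a histone chaperone with a TOP start, is on this list as well.

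Among 21 tested regulators around mTORC1 and LARP1, 3 rose (14.3%) and 2 fell (9.52%), near the backgrounds of 11.2% and 10.2%. Larp6, a collagen mRNA binder of the LARP family, and Deptor, an mTOR inhibitor, rose by 0.43 and 0.36 on the log2 scale, at means of 3.53 to 5.58 CPM (adjusted p = 0.0292 and 0.0384). Akt1, an upstream kinase, fell (−0.14, adjusted p = 0.0113). Of 9 tested S6 kinase genes, Rps6ka1, which encodes a kinase of the ERK branch, fell (−0.30, adjusted p = 0.000498 by edgeR). That is 11.1% of the list, near the background of 10.2%.

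Of 16 tested transcription factors named for ribosomal protein promoters, 3 rose (18.8%, against 11.2% of all genes) and 2 fell (12.5%, against 10.2%). Mycn fell from 130 ± 9.82 CPM in WT to 109 ± 6.83 CPM in Hint1-/- MASMCs (SD, n = 4 each, log2 fold change −0.24, adjusted p = 0.00158 by edgeR). Mxi1, a Myc antagonist, rose (0.21, adjusted p = 0.00956) and Tbpl1, a TBP-like factor, fell (−0.20, adjusted p = 0.0116). Myc, named here after its values were seen, rose from 63.5 ± 2.43 to 70.9 ± 1.19 CPM (log2 fold change 0.16, adjusted p = 0.00377 by edgeR). Of 12 tested genes for ribosome quality control and hibernation, Nemf, which marks stalled large subunits, rose (0.14, adjusted p = 0.0352 by edgeR). That is 8.33% of the list, under the 11.2% of all genes that rose.

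Mitochondrial ribosomal proteins form a separate ribosome and were set beside the cytosolic ones. Of 78 tested, 7 fell (8.97%, against 10.2% of all genes) and 0 rose (against 11.2%), and the median log2 fold change was −0.05. The largest changes were in Mrps18a (−0.21, adjusted p = 0.00933), Mrpl52 (−0.19, adjusted p = 0.00904) and Mrpl17 (−0.17, adjusted p = 0.00773). As in the cytosolic set, no gene passed the 1.5-fold limit. Their share of the counts was 0.275% ± 0.00613 in WT and 0.263% ± 0.00780 in Hint1-/- MASMCs (SD, n = 4 each).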

How the data were processed

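RNA-Seq was made from oligo(dT)-enriched RNA of 4 WT and 4 Hint1-/- samples on a BGISEQ-500 with 50-base reads. The authors deposited estimated counts per gene symbol, with 2 decimals and no normalization, of which 67.3% to 67.8% were whole numbers. The submitters' processing notes name Bowtie2, RSEM 1.3.1, DESeq2 1.4.5 and mm10, and the study's methods name HISAT2. No molecular identifiers are described. Counts were rounded, filtered with filterByExpr, scaled by TMM and compared with edgeR 4.0.16 (glmQLFit, glmQLFTest, two-sided, genotype only, Benjamini-Hochberg adjustment over 13535 genes), in R 4.3.3. A gene rose or fell at an adjusted p under 0.05. A fold over 1.5 was counted apart. The standard error is the size of the log2 fold change over the square root of F. Exact permutation tests over 70 assignments used log2 CPM with a prior count of 2. The fit was tested on simulated data with 200 genes changed. Transcript lengths, with 1 representative transcript a gene, came from GENCODE M21 on mm10, which matched 17733 symbols. Shared windows were exact 50-base matches between GENCODE transcripts. Promoter sequences were RefSeq's, GRCm38.p6.

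The members and gene lists were chosen with earlier results of these data known. Named members were those that fell, the 4 highest and 4 lowest per length, members picked by role, paralogs, untested members, and those with the longest pyrimidine runs. From each list up to 3 genes with the largest change past the adjusted p were named. Alternatives were DESeq2 1.42.0, limma-voom (limma 3.58.1), other size factors and filters, unrounded counts, a length and GC correction, the replicate block, and each library left out. The single-gene results of 1 member and of 1 gene on these lists are not reported here.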

Additional observations from a re-analysis of the deposited data

Results flagged for a closer look

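In 7 groups of 4 libraries, out of 92 examined over the named members and summed shares, 1 library stood far from the other 3, where chance gives about 4.6. The gap as a share of the range was 0.958 for Rps2, 0.940 for Rps3, 0.867 for Rpl37 and 0.831 for Rpl36a in WT. It was 0.921 for Rpl26, 0.861 for Rpl22 and 0.835 for Rpl14 in Hint1-/- MASMCs. For Rps2 and Rps3 the far library was WT replicate 2, with 1556.2 CPM of Rps2 against 1630.9 to 1634.2 in the other 3 and 572.2 CPM of Rps3 against 620.8 to 624.0. For Rpl36a it was WT replicate 4, with 182.9 CPM against 158.1 to 162.0, and for Rpl37 it was WT replicate 4 as well. For Rpl26 it was Hint1-/- replicate 4, with 394.5 CPM against 412.5 to 414.1. For Rpl22 it was Hint1-/- replicate 1, with 228.7 CPM against 209.9 to 212.4, and for Rpl14 it was Hint1-/- replicate 3, with 338.3 CPM against 324.7 to 326.9.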

How the results depend on the processing

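The count of members that fell was 5. It was 10 (12.7%) with upper-quartile factors and 10 (12.7%) with library totals only, against 11.3% and 11.6% of all genes. With DESeq2 it was 8 of 83 (9.64%), against 6.08% of 18409 genes, which include genes left out of the main fit. It was 8 without WT replicate 2 and Hint1-/- replicate 4 together (added after the data were seen), and from 1 to 19 when 1 library was left out. It was 4 with the length and GC correction or the replicate block and 5 or 6 under the other settings. No setting gave a member that rose or one past the fold limit. With the replicate block 4 members fell, all but Rpsa (adjusted p = 0.0573). Same-numbered libraries deviated with correlations of −0.0450, 0.0814, 0.00875 and 0.0230, which show no pairing by number. The labels do not say whether the numbers pair the samples. The large subunit median stayed between −0.08 and −0.02 on the log2 scale and the small subunit median between −0.09 and −0.03 under all settings. The number of members fitted below 0 was 56 to 77. Without the 20 most abundant other genes in the totals, the members' mean share was 4.29% in WT and 4.07% in Hint1-/- MASMCs. Among named members that did not pass, Rplp1, Rpl4, Rpl14, Rpl22, Rps3, Rps4x, Rps20, Rps27, Rps27a, Rpl34 and Rpl35 passed under at least 1 setting. Depth limits the 4 untested members, which had at most 12 counts in a library.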
